A study of Mus musculus with 2 samples.

Results

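The interferon regulatory factors (IRFs) examined here were 8 genes, Irf1, Irf2, Irf3, Irf4, Irf5, Irf7, Irf8 and Irf9, out of 20657 genes that had a named probe on the arrays. Their probes were taken by the RefSeq transcript that the array design assigns to each spot, whatever the values, which gave 9 probes of 1 spot each, with 2 probes for Irf1 and 1 for every other gene. The cells were ATDC5, a mouse chondrogenic line that forms cartilage nodules in culture. The tested line carried an inducible A-CEBP transgene, whose product is a dominant-negative partner of the C/EBP transcription factors that blocks their binding to DNA, and the control line carried inducible GFP. Both stable lines received 2 µg/mL doxycycline for 2 days, followed by 3 weeks of differentiation with ITS (insulin, transferrin and selenite), so that both groups shared the drug and the differentiation. Each group was 1 sample on 1 array. The sources used here do not say whether either line was a single clone, and expression of the transgenes was not checked, because no probe is named for them.

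IRFs share an amino-terminal DNA-binding domain with a row of conserved tryptophans, which recognises the GAAA repeats of interferon-stimulated response elements. IRF3 and IRF7, once phosphorylated by the kinases TBK1 and IKK-epsilon, switch on type I interferon genes, and IRF9 is part of ISGF3, the complex that carries the type I interferon signal to its targets. IRF1 is an activator induced by interferon-gamma and inflammatory cytokines, IRF2 competes with it for the same sites, and IRF4, IRF5 and IRF8 are best known from immune cells.

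The comparison asked how the IRF genes differed between A-CEBP and GFP cells. Irf7, Irf9 and Irf1 were lower in the A-CEBP sample, by 5.73-fold, 2.19-fold and 2.06-fold. Irf2, Irf3, Irf5 and Irf8 lay within 2-fold, with log2 differences (A-CEBP minus GFP) from 0.06 to 0.36, and Irf4 was not well above background on either array. Of the 7 members with a signal well above background on each array, 3 (42.9%) passed the 2-fold rule as lower and 0 as higher. Among all 13860 genes with such a signal, 1.70% were lower and 1.26% higher by that rule, 2.96% in all. With 1 array per group there was no replicate check and no p-value, and the median scanner error of a difference, 0.20 on the log2 scale, covers the measurement only. The differences of the 3 lower members were separated by 1.10 log2 units from those of the other 4. The median over the 7 members was 0.06, beside 0.05 over all genes, and it describes neither set of members.

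**Figure D1:**
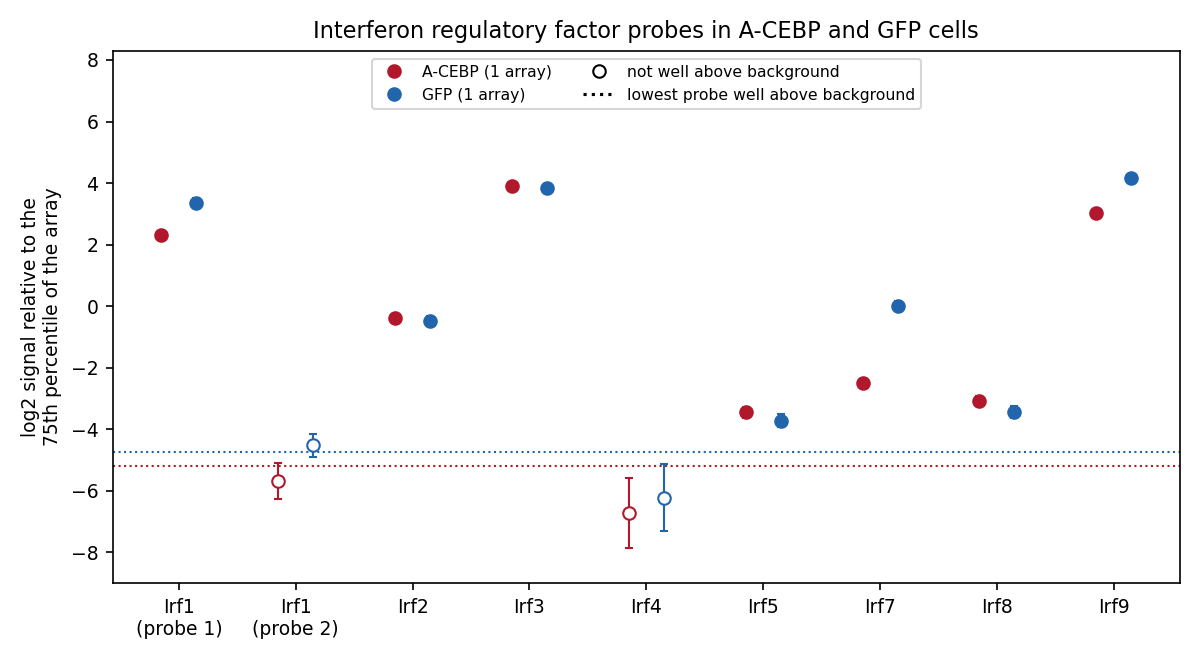
Log2 signal of the 9 IRF probes in A-CEBP (left point of each pair) and GFP cells, relative to the 75th percentile of each array, with the error given by the scanner software. Open points were not well above background, and dotted lines mark the lowest probe that was, on each array. Irf7, Irf9 and probe 1 of Irf1 sat lower in A-CEBP cells, and probes are not to be compared with each other.

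The values are the scanner's processed signal, a background-subtracted intensity in arbitrary units. Levels are log2 of that signal minus the 75th percentile of the array, which was 906 units for A-CEBP and 872 for GFP. A probe was measured where the scanner marked it as well above background, which held for 58.0% of spots in A-CEBP and 54.6% in GFP cells. The lowest such signal was 24.8 units in A-CEBP and 32.9 in GFP cells, and 0 spots were saturated. Spots that repeat a probe (291 probes) had differences with an SD of 0.11, or 0.16 among the 97 dimmest probes and 0.06 among the 97 brightest. Different probes of a gene gave an SD of 0.19 (3601 genes). None of the IRF probes had a replicate spot, and the number of arrays limits the precision. The arrays came from bulk RNA, where fewer cells of a type and less RNA per cell cannot be told apart.

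Irf7, the interferon-inducible amplifier of type I interferon production, showed the largest difference of the family. Its signal was 158.9 ± 16.8 units in A-CEBP cells and 877.5 ± 88.0 units in GFP cells (scanner error). On the log2 scale the levels were -2.51 in the A-CEBP sample and 0.01 in the GFP sample, a difference of -2.52 with a scanner error of 0.21. Only 44 of the 13860 genes had a lower difference. The unprocessed median brightness of the spot was 250 units over a local background of 42 in A-CEBP, and 1061 over 53 in GFP cells, so the spot stood clear of its surroundings on both arrays. Of the spots within 2 rows and columns, 10 were well above background on both arrays, and their median log2 difference was 0.07. The value was -2.12 with normexp background correction (limma's model of signal plus background), the least negative of 12 alternatives, and -2.57 with the authors' deposited values.

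Irf9, the DNA-binding subunit of ISGF3, had 7362 ± 736 units in A-CEBP cells and 15524 ± 1552 units in GFP cells. The signal was bright in both samples, and the log2 difference was -1.13 with a scanner error of 0.20. Irf1 had 4502 ± 450 units in A-CEBP cells and 8949 ± 895 units in GFP cells, with a log2 difference of -1.05 and a scanner error of 0.20. The second Irf1 probe, assigned to another transcript variant, read 17.6 units in A-CEBP and 38.1 units in GFP cells and was not well above background on either array, so it gives no fold. In the order of differences, 194 genes lay below Irf9 and 216 below Irf1. The median log2 difference of neighbouring spots was 0.15 around Irf9 (13 spots) and -0.004 around Irf1 (15 spots).

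The place of Irf1 and Irf9 past the 2-fold rule rested on the scaling. When the mean difference of 280 E1A spike-in control spots was set to 0, Irf9 was at -0.93 and Irf1 at -0.85, and without any scaling Irf1 was at -0.99. Spike-in scaling moved the median of all genes to 0.24, and turned the split of 236 genes lower and 174 higher into 180 lower and 323 higher. Relative to the median of all genes, which an additive scaling does not alter, Irf7 was at -2.56, Irf9 at -1.18 and Irf1 at -1.09. All 12 alternatives kept these 3 genes below 0.

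**Figure D2:**
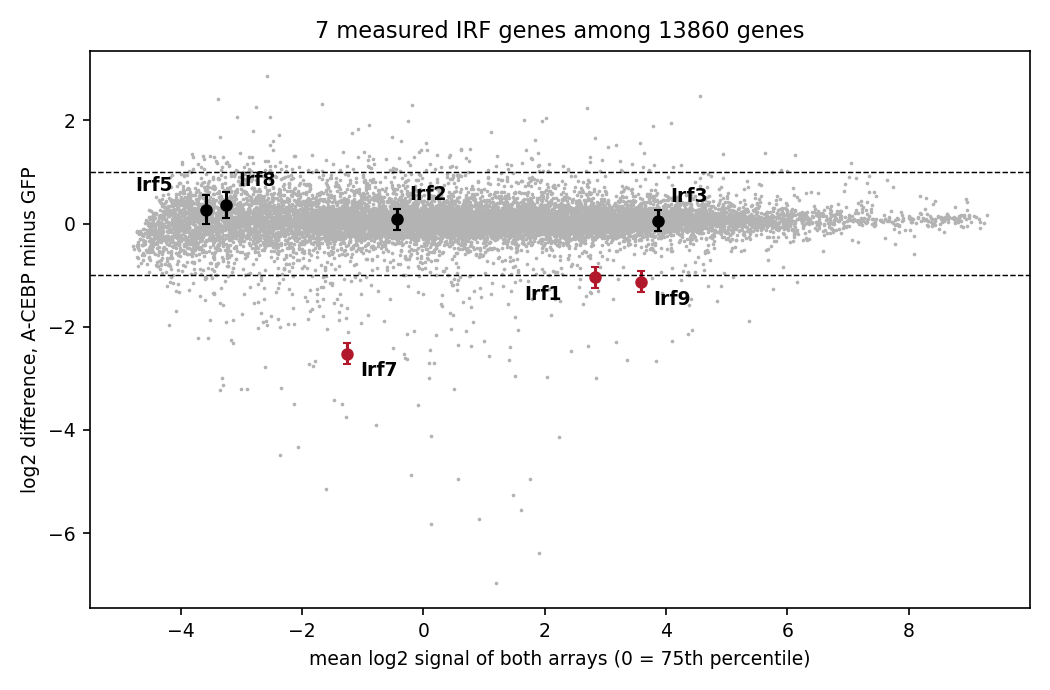
Log2 difference (A-CEBP minus GFP) against the mean log2 signal for 13860 genes (grey) and the 7 measured IRF genes, with scanner error. Dashed lines mark 2-fold. Irf7, Irf1 and Irf9 (red) lie below the lower line, and Irf2, Irf3, Irf5 and Irf8 lie within the main body of genes.

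The sequences before the annotated starts are shown for Irf1, Irf2 and Irf8, the members whose windows held a match to a searched motif, and for Irf7, which differed most. They are RefSeq windows of 250 bases on mouse build GRCm38.p6, read 5′ to 3′ along each gene, and capitals mark the matches, of which Irf7 has none. Irf1 lies at chr11:53769764-53770013, plus strand, Irf2 at chr8:46739495-46739744, plus strand, Irf7 at chr7:141266425-141266674, minus strand, and Irf8 at chr8:120736108-120736357, plus strand.
Irf1: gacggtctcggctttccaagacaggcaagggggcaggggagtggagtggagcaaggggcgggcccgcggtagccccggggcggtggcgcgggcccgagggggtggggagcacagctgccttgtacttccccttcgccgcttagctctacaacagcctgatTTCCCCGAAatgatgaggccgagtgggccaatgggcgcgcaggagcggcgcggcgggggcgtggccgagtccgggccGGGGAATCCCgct
Irf2: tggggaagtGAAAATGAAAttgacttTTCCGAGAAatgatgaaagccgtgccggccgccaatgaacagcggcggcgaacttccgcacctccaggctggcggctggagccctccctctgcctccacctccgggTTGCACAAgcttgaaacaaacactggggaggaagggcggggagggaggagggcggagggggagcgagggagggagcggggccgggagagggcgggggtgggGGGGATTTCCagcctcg
Irf7: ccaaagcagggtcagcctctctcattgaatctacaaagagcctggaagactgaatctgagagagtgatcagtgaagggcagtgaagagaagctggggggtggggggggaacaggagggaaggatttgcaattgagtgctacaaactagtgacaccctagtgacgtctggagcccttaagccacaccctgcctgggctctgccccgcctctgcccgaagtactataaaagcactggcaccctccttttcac
Irf8: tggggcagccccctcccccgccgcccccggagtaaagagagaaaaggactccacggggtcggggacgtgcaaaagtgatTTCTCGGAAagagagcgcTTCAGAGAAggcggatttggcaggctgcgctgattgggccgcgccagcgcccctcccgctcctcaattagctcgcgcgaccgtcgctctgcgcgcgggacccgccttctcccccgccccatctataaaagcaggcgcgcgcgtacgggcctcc
The Irf1 window held a gamma-activated site (TTCNNNGAA, bound by STAT dimers) at -90 and an NF-kB site at -13. The Irf2 window held an interferon-stimulated response element core (GAAA, any 2 bases, GAAA) at -241, a gamma-activated site at -224, a C/EBP site (TTGCNNAA) at -118 and an NF-kB site at -17. The Irf8 window held gamma-activated sites at -171 and -153. Positions are those of the first base, counted back from the start, all motifs were searched on both strands, and no match overlapped another.

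No letters of the 4 motifs were found in the windows of Irf7, Irf9, Irf3, Irf4 or Irf5, nor in the second windows of Irf1, Irf8 and Irf9. Over 32851 promoter windows of the same length, 2.98% held the response element core, 7.02% the gamma-activated site, 9.56% the C/EBP site and 3.90% the NF-kB site. Irf2, which held all 4 motifs, and Irf8, with gamma-activated sites, lay within 2-fold. Of the lower members, Irf1 held a gamma-activated site and an NF-kB site, and Irf7 and Irf9 held 0 matches. Whether matches go with the differences was not tested. A match describes letters only, and the windows do not reach distant elements.

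**Figure D3:**
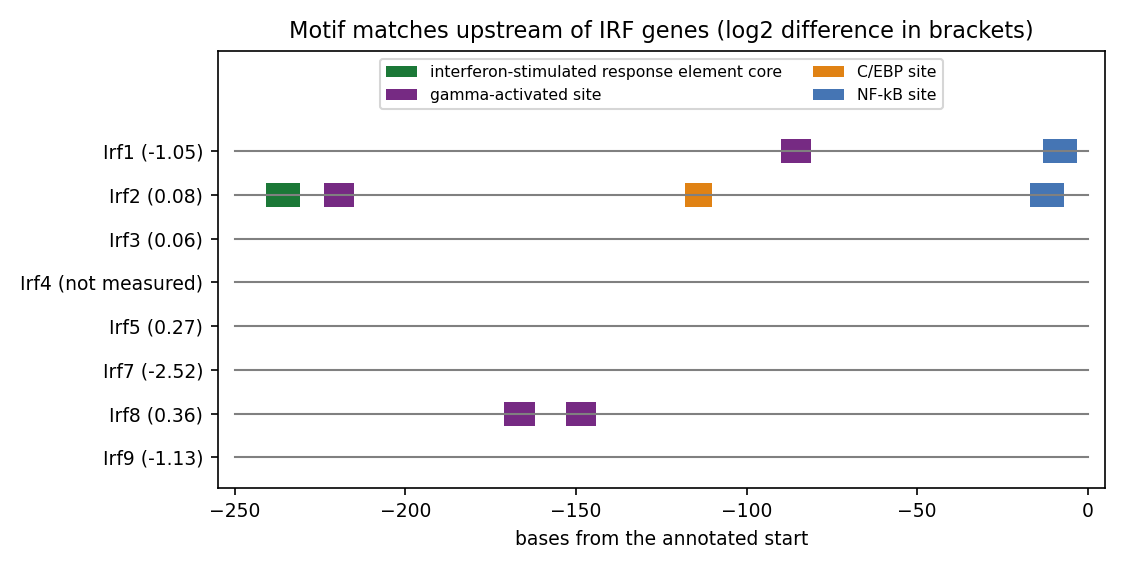
Motif matches in the 250 bases before the annotated start of each IRF gene (first window), by distance from the start in bases, with the gene's log2 difference (A-CEBP minus GFP) in brackets. Matches occur in Irf1, Irf2 and Irf8, and Irf7 and Irf9 show none.

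Irf2 and Irf3 were close to equal in both samples. Irf3 encodes a constitutively expressed activator of type I interferon genes. Its signal was 13463 ± 1346 units in A-CEBP cells and 12446 ± 1245 units in GFP cells, a log2 difference of 0.06 with a scanner error of 0.20. Irf2, the antagonist of Irf1, had 692 ± 69.4 units in A-CEBP cells and 629 ± 63.2 units in GFP cells, a log2 difference of 0.08 with a scanner error of 0.20. For both genes the distance between the samples was smaller than the scanner error. Over 12 alternatives Irf3 ran from 0.004 to 0.26 and Irf2 from 0.03 to 0.28.

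Differences between members on the same pair of arrays do not depend on an additive scaling. The log2 difference of Irf1 minus that of Irf2 was -1.13 (scanner error 0.29), so the activator and its antagonist differed unequally. Irf7 minus Irf3, whose products both switch on type I interferon genes, was -2.58 (scanner error 0.29). Irf9 minus Irf1 was -0.09, within its scanner error of 0.29, whereas Irf7 minus Irf1 was -1.47 and Irf7 minus Irf9 was -1.39, each with a scanner error of 0.29. Among the dim members, Irf8 minus Irf5 was 0.09 with a scanner error of 0.37.

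Irf5 and Irf8, both known from myeloid cells, were dim. Irf5, which acts downstream of Toll-like receptors on inflammatory cytokine genes, had 82.7 ± 10.2 units in A-CEBP cells and 66.3 ± 10.1 units in GFP cells. The signal difference of 16.4 units had a scanner error of 14.3 units, and the log2 difference was 0.27. Irf8, a factor of macrophage and dendritic cell development, had 107.2 ± 11.9 units in A-CEBP cells and 80.5 ± 10.5 units in GFP cells. Its signal difference was 26.7 units with a scanner error of 15.8 units, and its log2 difference was 0.36. Both signals lay within a few multiples of the lowest signal well above background, and both genes dropped out when 3 times that signal was required on each array. Irf4, a factor of lymphocytes and plasma cells, read 8.5 ± 6.71 units in A-CEBP cells and 11.6 ± 8.77 units in GFP cells and has no fold, since neither reading was told apart from background.

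**Figure D4:**
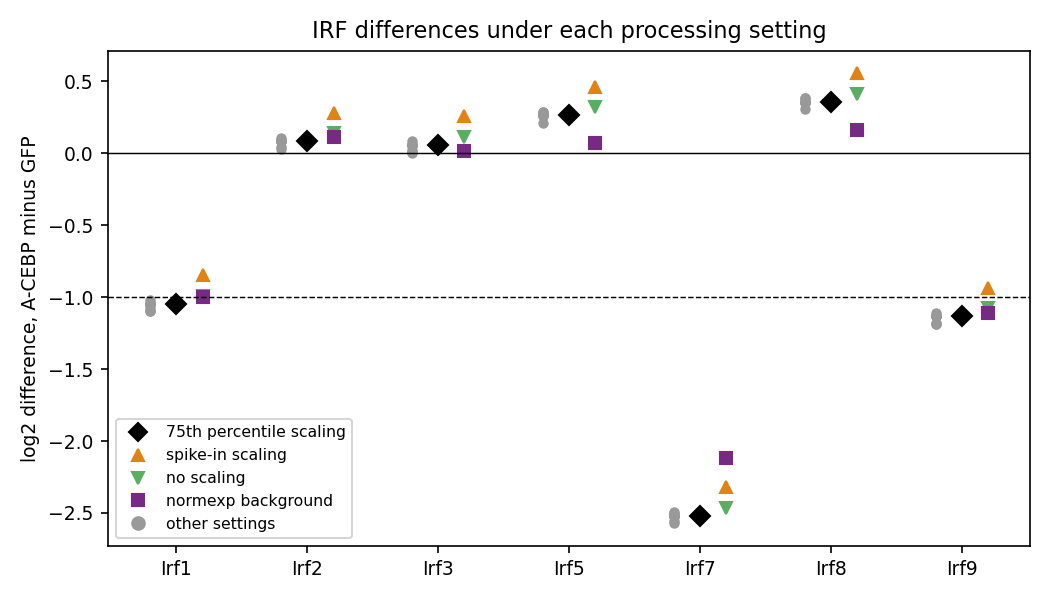
Log2 difference (A-CEBP minus GFP) of the 7 measured IRF genes under the 75th percentile scaling (black) and the alternatives. The dashed line marks 2-fold. Irf7 stayed between -2.57 and -2.12, and spike-in scaling placed Irf1 and Irf9 above the dashed line.

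The genes whose difference lay nearest to that of Irf7, over the 2 arrays, were Oas1f (-2.54), Ifit1 (-2.56), Usp18 (-2.46) and Ifi207 (-2.45), where 5 genes in all lay within 0.1 log2 units of it. Likeness on 1 difference says only that these genes differed by a similar amount.

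The pathway around the IRFs was read through 7 lists of genes ordered by role, of which 7 genes stand in 2 lists. Among 24 measured sensors, adaptors and kinases that lead to IRF activation, 4 (16.7%) were at least 2-fold lower and 0 higher, beside 1.70% and 1.26% of all genes. The median of the list was -0.26 (between -0.31 and -0.06 over the alternatives). These 4 were the nucleic acid sensor genes Zbp1 (-3.42), Dhx58 (-2.08), Ifih1 (-1.60) and Ddx58, which encodes RIG-I (-1.31), all of which are themselves interferon-inducible. The adaptor gene Ticam1 differed by -0.89 and the receptor gene Tlr9 by 0.40. The kinase genes Tbk1 and Ikbke differed by -0.26 and -0.29, each close to its scanner error of 0.20 and 0.25.

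Interferon genes themselves gave little signal. Ifnb1, Ifng and 5 other ligand genes were not well above background on either array, 1 (Ifna13) was seen in A-CEBP cells only, within 2-fold of the GFP limit, and 8 were measured on both, at log2 levels from -3.89 to -2.45 in A-CEBP and from -4.01 to -2.74 in GFP cells. None of the 8 was 2-fold apart, beside 2.96% of all genes. Their differences ran from -0.31 (Ifna1 and Ifna5) and -0.27 (Ifna2) to 0.29 (Ifna12 and Ifnl3) and 0.34 (Ifna11), with a median of 0.04 (from -0.29 to 0.24 over the alternatives, changing sign). Probes of these closely related genes can share signal, so single values are uncertain.

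Among 11 genes for interferon receptors, JAK kinases and STAT partners, 0 were at least 2-fold higher, beside 1.26% of all genes. Of these 11, 9 lay between -0.18 (Il10rb) and 0.14 (Ifnlr1). Ifngr1 and Jak2 were each at -0.10. Stat2, whose product acts with IRF9 in ISGF3, was at 1.44 in A-CEBP cells against 2.91 in GFP cells, a log2 difference of -1.47 with a scanner error of 0.20. The list's median of -0.09 turned to 0.10 with spike-in scaling.

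Among 17 genes that restrain IRFs or interferon signalling, 3 (17.6%) were at least 2-fold lower and 0 higher, beside 1.70% and 1.26% of all genes. With no scaling, median scaling, spike-in scaling or normexp background, 2 were lower. Usp18, which removes ISG15 and blocks the type I receptor, was at -2.46, Socs3 at -1.22 and Trim21, a ubiquitin ligase that acts on IRFs, was 2.01-fold lower, just past the rule. Tnfaip3 (-0.88), Socs1 (-0.68) and Ptpn2 (-0.50) followed. The 3 genes for IRF2-binding proteins, named after their values were seen, lay between -0.14 and 0.18. The median of the list was -0.03, and 0.16 with spike-in scaling.

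Of the DNA-binding partners that IRF4 and IRF8 use in immune cells, Spi1, Spib, Batf and Ikzf1 were not well above background on either array. Ikzf3 was seen in A-CEBP cells only, as were 674 genes in all, beside 171 seen in GFP cells only. Its signal was 2.18-fold above its GFP reading, which was not well above background, so that fold is uncertain. Of the 7 measured on both arrays, Junb was at -1.04, lower by the rule, as were 1.70% of all genes. With no scaling, spike-in scaling or normexp background, 0 genes of the list passed the rule. Jund (0.36), Batf3 (-0.25), Jun (-0.17), Bcl6 (0.13) and Tcf3 (0.10) were within 2-fold. The median was -0.06 (0.14 with spike-in scaling).

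Genes classed as targets of IRFs were read as 2 lists. Among 35 measured genes classed as IRF1 or interferon-gamma targets, 17 (48.6%) were at least 2-fold lower and 0 higher, beside 1.70% and 1.26% of all genes. The median was -0.96 (between -1.07 and -0.76 over the alternatives). Of these 35, 33 lay below 0, and Ciita (0.59) and Casp8 (0.15), named after their values were seen, above it. Casp8 lay within its scanner error of 0.20, and Ciita was dim, with a scanner error of 0.34. The chemokine gene Cxcl10 was at -5.27, the guanylate-binding protein genes Gbp5, Gbp3 and Gbp2 at -4.50, -2.95 and -2.65, the inducible nitric oxide synthase gene Nos2 at -4.13 and the caspase gene Casp1 at -1.87. The A-CEBP signals of Gbp5 (-4.61) and Casp1 (-4.45) lay near the detection limit, which makes the size of either difference uncertain. The chemokine gene Cxcl9 had a signal in GFP cells only and was at least 2.53-fold lower.

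Among 35 measured genes classed as ISGF3 targets, 26 (74.3%) were at least 2-fold lower and 0 higher, beside 1.70% and 1.26% of all genes. The median was -1.50 (between -1.57 and -1.30 over the alternatives). Of these 35, 32 lay below 0, and Sp100 (0.19), Isg20 (0.17) and Pml (0.11), likewise named afterwards, above it. Each of these lay within its scanner error (0.29, 0.20 and 0.20), and the other probe of Pml was at -0.35. The antiviral genes Oas2 (-4.33), Rsad2 (-3.50), Oas1a (-3.21) and Oasl2 (-3.00) led, with Zbp1 and Cmpk2 (-2.73), and Oas3, seen in GFP cells only, was at least 8.24-fold lower. The A-CEBP signal of Oas2 (-4.23) lay near the detection limit of that array (-5.19), so the size of its difference is uncertain. The lower direction of the interferon-response genes was known before these lists were drawn up, so their counts are no independent evidence, and many of these targets also answer to STAT and NF-kB factors. Members of the Oas and Gbp families can share signal.

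**Figure D5:**
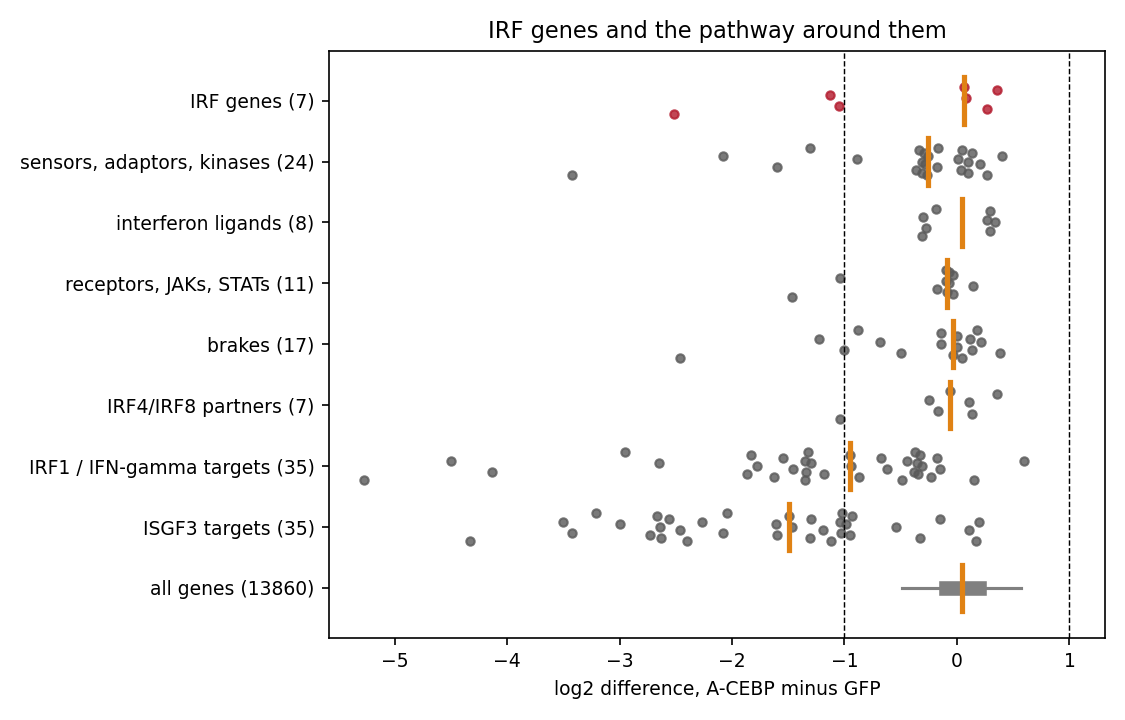
Log2 difference (A-CEBP minus GFP) of the 7 measured IRF genes and of 7 pathway lists (1 point per gene, number measured in brackets). Orange bars mark medians, and the grey bars give the middle 50% and 90% of all 13860 genes. Points left of the dashed line at -1 are most frequent among the ISGF3 targets.

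Markers of the cultures were read beside these values. Of 17 chondrocyte genes 15 were measured on both arrays, with a median of 0.63. Col2a1 was at 8.65 in A-CEBP and 8.22 in GFP cells, and Ihh (1.56), Hapln1 (1.42), Acan (1.30) and Cnmd (1.02, just past the rule) were at least 2-fold higher. Thus 4 of the 15 were higher and 0 lower by the rule, beside 1.26% and 1.70% of all genes. Of the 15, 13 lay above 0, and Sox5 (-0.06) and Comp (-0.04) lay below it, each within its scanner error of 0.20. Of 27 macrophage, dendritic and lymphocyte markers with a probe, 11 were measured on both arrays, with a median of -0.10, and 15 were not well above background on either array. Ptprc, Adgre1, Itgax, Tyrobp, Ms4a1 and Cd3d were among these 15. Of the 11, 6 lay below 0 and 5 above. Itgb2, the integrin beta chain of leukocytes, was at -1.64. The myeloid genes Cd14, Lyz2 and Fcer1g, named after their values were seen, were at -0.84, -0.83 and -0.36, and Lyz2 was dim (-3.63 in A-CEBP and -2.81 in GFP cells). Csf1r (-0.14, with its other probe at 0.36) and Zbtb46 (-0.10) lay nearer to 0, and Itgam, also myeloid, was among the 5 above 0. Siglech, Itgam and Cd4 gave the highest signals and differed by 0.07, 0.23 and 0.30, with the other probe of Itgam at -0.57. The summed signal of the marker probes was 134012 units in A-CEBP and 121035 units in GFP cells, most of it from the Siglech probe. Whether that probe reports Siglech RNA was not tested. The part of other cell types in the IRF differences was not tested.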

How the data were processed

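RNA of 1 A-CEBP and 1 GFP sample was labelled with Cy3 (1 colour) for Agilent mouse arrays, as the labels' protocols state. The deposited scanner files give linear intensity, already background-subtracted and detrended per array, per the file headers, with no scaling between arrays. Per the submitters' processing notes the software was Agilent Feature Extraction 10.10.1.1. Both arrays shared 1 slide and 1 scan. The authors' deposited value table holds the same intensity times a constant, 1.15 for A-CEBP and 1.24 for GFP (column medians 67.4 and 70.9), linear and uncentred, and the choice of constants is not stated.

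Control spots were left out, as were 293 outlier spots of 59305. A probe was well above background where over 50% of its spots were so marked. Of 55671 probes, 27229 matched 1 gene of the RefSeq table (GRCm38.p6) by transcript, and the brightest probe measured on both arrays stood for its gene. For genes seen on 1 array, the bound on the fold used the dim probe's own value or the detection limit of that array, whichever was higher. The detection limit is the lowest level of any probe well above background on that array. Some probes above it were not so marked, such as the second Irf1 probe in GFP cells (38.1 units against 32.9). The bounds also leave out measurement error, so they are approximate. The text names every IRF probe, up to 6 members of each list by size of difference, up to 3 with bounds over 2-fold, Stat2, Tbk1, Ikbke and Ifnb1, the 4 genes nearest to Irf7, and markers that were brightest or 2-fold apart. The members, lists and rules were chosen with earlier results of these data known. Some genes that the rule names are not reported here. Protein sequences were not used here. Calls were tested on simulated data, made from the GFP array with noise about as large as the spread of replicate spots. That noise leaves out variation between cultures and lines, so the simulation cannot tell how sure calls near 2-fold are. Tools were Python 3.11.15, pandas 2.3.3, numpy 2.4.6, R 4.3.3 and limma 3.58.1. Normexp used median spot and background signals (offset 50), in place of the planned mean spot signal.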

Additional observations from a re-analysis of the deposited data

How the results depend on the processing

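The count of IRF genes at least 2-fold lower, 3, was 1 with spike-in scaling and 2 without scaling, and 3 under the other 11 alternatives. The family median of 0.06 was -0.22 with no filter on dim probes, which lets Irf4 in, and -1.05 with the stricter filter, which leaves Irf5 and Irf8 out. Over all genes, 236 lower and 174 higher became 180 lower and 323 higher with spike-in scaling, 174 lower and 97 higher with normexp background, 883 and 603 with no filter, and 527 and 652 with a 1.5-fold rule. Among receptors, JAK kinases and STAT partners, the count lower was 1 in place of 2 with no scaling, spike-in scaling, normexp background and the stricter filter. Among partners of IRF4 and IRF8 it was 0 in place of 1 with the first 3 of these, and 1 gene was higher with no filter. Brakes gave 5 lower in place of 3 with the 1.5-fold rule, interferon ligands 1 lower in place of 0 with no filter, and IRF1 targets 1 higher in place of 0 with the 1.5-fold rule. The other 226 counts and medians of this kind kept within 1.5 times, or within the scanner error. No paired analysis was possible because each group holds 1 sample. Signal over background limits Irf4, Irf5 and Irf8. Transgene, line and culture each differ between the 2 arrays and cannot be told apart.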

Other observations

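The genes next to the lower IRF genes in the RefSeq gene order, taken as the nearest on each side that was measured on both arrays, were all within 2-fold. They were looked up after the values of the IRF genes were known. Over all 13860 genes measured, only 2.96% were at least 2-fold apart, so neighbours within 2-fold are what most genes would show. On the log2 scale, beside Irf7 at -2.52, Phrf1 (0.05) and Cdhr5 (0.05) lay directly on either side. Beside Irf9 at -1.13, Rnf31, which encodes a subunit of the linear ubiquitin ligase complex, differed by -0.20 and Rec8 by 0.14. Beside Irf1 at -1.05, the DNA repair gene Rad50 differed by 0.08 and Gm12216 by -0.12. Bcl2l12, next to Irf3 (0.06), differed by -0.20. Of the 14 neighbours of the 7 measured members, 1 was at least 2-fold apart, Kcp beside Irf5, at 1.21.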
